A study of Mus musculus with 4 samples.

Results

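The chemokine system that draws blood cells into the thymus was followed through 9 genes: the ligands Ccl25, Ccl21a, Ccl19, and Cxcl12, the signaling receptors Ccr9, Ccr7, and Cxcr4, and the scavenging receptors Ackr3 and Ackr4. The genes were chosen by name out of 27998 features of a single-cell RNA sequencing (scRNA Seq) series, in which 11 features carry their symbols. The 2 second entries, for Ccl21a and Ccl19, held 0 UMIs (unique molecular identifiers, each marking a captured transcript). Ligands were described in the cells that make them and receptors in the cells that receive them, in each of 4 libraries.

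The libraries came from thymic lobes of embryonic day 13 to 13.5 mice, with 1 library per group. The Tbx1+/+ carrier and Tbx1neo2/neo2 carrier groups came from dams injected with ethanol, the vehicle of the drugs, and the Tbx1neo2/neo2 minoxidil and Tbx1neo2/neo2 PGE2 groups from dams given minoxidil, a vasodilator, or prostaglandin E2 on consecutive days of mid gestation. All embryos were offspring of intercrosses of Tbx1+/neo2 mice, in which a neomycin cassette within an intron lowers the output of Tbx1, the T-box factor lost in 22q11.2 deletion syndrome. The neo2 allele is carried by all cells and lowers Tbx1 without deleting it, lobes of small thymuses were pooled, and the number of embryos per library is not known. With 1 library per group, a difference compares libraries, embryos of a group could not be told apart, and no test over embryos was possible.

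Values are given throughout in the order Tbx1+/+ carrier, Tbx1neo2/neo2 carrier, minoxidil, and PGE2 library. The kept cells numbered 11474, 10683, 3201, and 4152, with medians of 21125, 14108, 41084, and 34790 UMIs per cell, and any 2 libraries shared between 4 and 35 cell barcodes. Cells were sorted into epithelial, mesenchymal, endothelial, hematopoietic, and erythroid classes from marker lists, and the genes described here were left out of the clustering. All 7 epithelial markers had UMIs in epithelial cells of each library, where their summed level was 4006 to 4987 CPM (UMIs of a gene per 1000000 UMIs), against 158 to 227 in hematopoietic cells. In endothelial cells they summed to 322, 204, 477, and 54.6 CPM, and mesenchymal markers there to 253, 1150, 539, and 196 CPM. Epithelial cells made up 29%, 10.4%, 29.8%, and 29% of the kept cells, and mesenchymal cells 24.6%, 57.9%, 30.9%, and 20.8%. Tbx1, the targeted gene, stood at 2.28, 2.33, 2.46, and 1.14 CPM over all kept cells and at 2.28, 1.09, 1.33, and 0.327 CPM in epithelial cells, so the 3 neo2 libraries were below the Tbx1+/+ library in epithelium. In endothelial cells, where Tbx1 was highest of the 4 main classes, the order was the opposite, at 11.7, 16.9, 19.1, and 24.9 CPM, and mesenchymal cells (3.32, 2.1, 3.64, and 2.02 CPM) and hematopoietic cells (0.581, 1.16, 0.91, and 0.317 CPM) had neo2 libraries on both sides of the Tbx1+/+ library. The Tbx1 level therefore matched the genotype labels in epithelium but not in every class. Whether reads within introns were counted is not stated.

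Progenitors reach the early thymus before it has blood vessels and are guided by chemokines. Ccl25, made by thymic epithelial cells (TECs), signals through Ccr9, while Ccl21a and Ccl19 both signal through Ccr7. Cxcl12, a product of stroma and epithelium, signals through Cxcr4. Ackr3 binds Cxcl12 and Ackr4 binds Ccl19, Ccl21, and Ccl25, and both take up their ligands without the G protein signal of the other receptors, which limits or shapes the gradients.

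Ccl21a is one of several near-identical gene copies on mouse chromosome 4, so its counts depend on how reads were divided among copies. Ccl21a lies on the minus strand at chr4:42772860-42773993 (GRCm38, GENCODE vM21), and its copy Gm21541 on the plus strand at chr4:41903610-41904743. The spliced transcripts of the 2 genes are each 870 bases long and differ at 6 bases, counted from the first base of the transcript: G24A, T159A, C269T, C640T, T812C, and G856A, with the base of Ccl21a first. Of the 2 differences within the coding part (bases 76 to 474), read in frame from base 76, T159A leaves a glycine codon (ggT to ggA). C269T turns a serine codon (tCa) into a leucine codon (tTa). The windows around both are shown with the differing base in capitals:
Ccl21a, bases 145 to 173: agtgatggagggggTcaggactgctgcct
Gm21541, bases 145 to 173: agtgatggagggggAcaggactgctgcct
Ccl21a, bases 255 to 283: ggcaatcctgttctCaccccggaagcact
Gm21541, bases 255 to 283: ggcaatcctgttctTaccccggaagcact
The other 4 differences lie outside the coding part, 3 of them after it. Gm21541 received 186, 9, 14, and 41 UMIs, which was 0.617%, 0.154%, 0.175%, and 0.188% of the UMIs of the 2 genes together. Nearly all UMIs were therefore assigned to Ccl21a in each library, but reads that match both copies cannot be placed, and the Ccl21a values below carry this uncertainty.

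FOXN1, the master transcription factor of TECs, is known to bind a core motif GACGC, which was searched on both strands (GACGC or GCGTC) in the 250 bases before and 50 bases after each RefSeq start site (GRCm38.p6). The motif was in 8932 of 32851 such windows, 27.2%, so a match is common. The upstream start of Ccl25 (window chr8:4324960-4325259) held 2 matches, beginning 56 bases before and 12 bases after the start, and its other start held 0. Cxcl12 held 1 match, 62 bases before the start, and the windows of Ccl21a, Ccl19, Ccr9, Cxcr4, Ackr3, and Ackr4 held 0. Ccr7 had no entry in the table. The upstream matches of the 2 ligands are shown with the motif in capitals, on the plus strand:
Ccl25, chr8:4325114-4325198: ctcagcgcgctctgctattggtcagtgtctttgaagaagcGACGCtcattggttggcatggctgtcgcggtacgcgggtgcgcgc
Cxcl12, chr6:117168433-117168517: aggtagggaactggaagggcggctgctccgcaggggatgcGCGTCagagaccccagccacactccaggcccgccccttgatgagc
A match describes these letters and is not a measured site.

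The 9 genes divided among the classes (the plot of levels by class and library). A level is a gene's summed UMIs over all UMIs of the class, in CPM. Its 95% interval, exact for Poisson counts and given in parentheses, covers counting error only, since cells are not replicates. Levels were compared between libraries for each gene and not between genes. A call of higher or lower needed a ratio of 1.5-fold or more between 2 libraries together with intervals that stayed apart. Fewer cells of a kind within a class and less RNA per cell cannot be told apart in such sums, except where clusters or single cells are given.

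**Figure D1:**
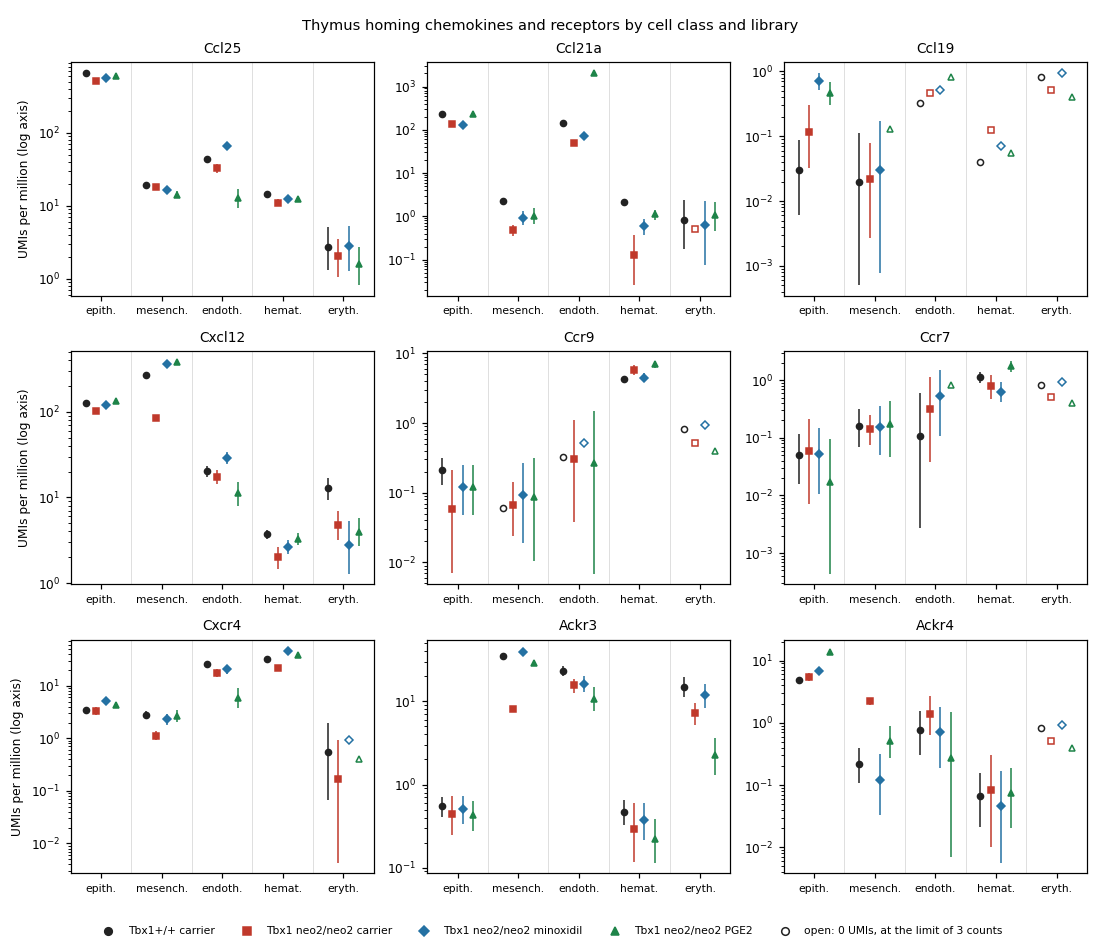
Levels in CPM of each of the 9 genes (vertical log axis) in 5 cell classes (horizontal axis) and 4 libraries, with exact Poisson 95% intervals as bars and open symbols for classes with 0 UMIs, drawn at the limit of 3 counts. Ccl25 stands highest in epithelial cells (511 to 668), Ccr9 in hematopoietic cells (4.25 to 6.94), and Cxcl12 and Ackr3 are lowest in the Tbx1neo2/neo2 carrier library among mesenchymal cells.

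Between the carrier libraries, 0 of the 7 members with at least 20 UMIs in epithelial cells were called higher in the Tbx1neo2/neo2 library and 1 lower, where 2.19% and 4.24% of the 15407 tested genes were (6.43% in either direction). In mesenchymal cells, 1 of 7 was higher and 4 were lower, against a background of 11.8% and 12.3% (24.1%). In endothelial cells, 0 of 5 were higher and 2 lower, against 4.07% and 3.6% (7.67%). In hematopoietic cells, 0 of 7 were higher and 2 lower, against 7.34% and 2.53% (9.86%). The 2 lower there were the ligands Ccl21a (165 and 3 UMIs in the Tbx1+/+ and Tbx1neo2/neo2 libraries) and Cxcl12 (281 and 48 UMIs). The receptors Ccr9, Ccr7, and Cxcr4 were not called there. The median log2 ratio of the tested members was -0.32, -1.29, -0.58, and -0.58 in these 4 classes, and that of all tested genes -0.08, 0.00, -0.02, and -0.03.

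Both drug libraries were compared with the same Tbx1neo2/neo2 carrier library, which also served the genotype comparison, so the 3 comparisons share it and do not check each other. With minoxidil, 2 of 7 members were higher and 0 lower in epithelial cells, where 4.06% and 2.56% of all tested genes were (6.61% in either direction). In mesenchymal cells 3 of 6 were higher and 1 lower (background 13.2% and 11%, 24.3% together). In endothelial cells 2 of 5, Ccl25 and Cxcl12, were higher and 0 lower (5.28% and 3.44%, 8.72% together). In hematopoietic cells 2 of 7, Cxcr4 and Ccl21a, were higher and 0 lower (3.32% and 6.85%, 10.2% together).

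With PGE2, 3 of 7 members were higher and 0 lower in epithelial cells, where 3.23% and 3.58% of all tested genes were (6.81% in either direction). In mesenchymal cells 4 of 6 were higher and 1 lower (background 11.8% and 12%, 23.8% together), in endothelial cells 1 of 5 higher and 2 lower (5.46% and 4.89%, 10.3% together), and in hematopoietic cells 4 of 6 higher and 0 lower (3.3% and 10.2%, 13.5% together). The 4 called in hematopoietic cells were Ccl21a, Cxcl12, Ccr7, and Cxcr4. Among the calls of the 3 comparisons are genes at the level of free RNA in the class in question, as described gene by gene. The remaining members of each class had fewer than 20 UMIs in the 2 libraries together and were not tested.

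**Figure D2:**
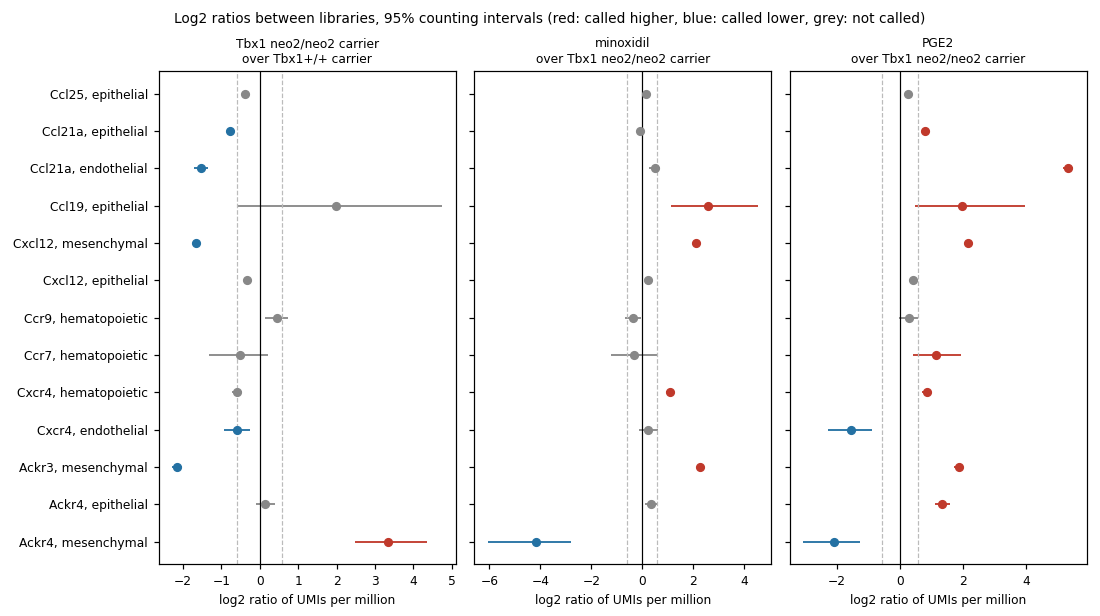
Log2 ratios of CPM between libraries (horizontal axis) for the 9 genes in the classes described in the text (vertical axis), with exact 95% counting intervals as bars and dashed lines at 1.5-fold. Ccl21a in endothelial cells with PGE2 (5.34) lies farthest to the right, and Ccl25 in epithelial cells lies within the dashed lines in all 3 panels.

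Ccl25, the ligand of Ccr9, was carried by the epithelium at levels per UMI that differed by less than 1.5-fold between libraries. Its level in epithelial cells was 668 CPM (663 to 673) in the Tbx1+/+ carrier, 511 (503 to 519) in the Tbx1neo2/neo2 carrier, 571 (565 to 577) in the minoxidil, and 604 (598 to 610) in the PGE2 library. The Tbx1+/+ library was the highest and the Tbx1neo2/neo2 carrier library the lowest, and no 2 of the intervals overlapped. The log2 ratio was -0.39 (-0.41 to -0.36) for the genotype, 0.16 (0.13 to 0.19) for minoxidil, and 0.24 (0.21 to 0.27) for PGE2, all short of the 1.5-fold limit.

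The share of epithelial cells with a Ccl25 UMI was close between libraries. Once every cell had been cut down at random to 5000 UMIs (thinning), 62.6% (60.9 to 64.3), 59.8% (56.9 to 62.8), 60.3% (57.1 to 63.4), and 61.6% (58.7 to 64.3) of epithelial cells kept a Ccl25 UMI. Without thinning the shares were 82.2%, 80.1%, 86%, and 84.2%. Hematopoietic cells gave 7.63%, 6.07%, 6.22%, and 6.9% after thinning. Median depths before thinning were 27226, 27104, 54432, and 45725 UMIs in epithelial and 34417, 24080, 60384, and 45624 in hematopoietic cells. At 5000 UMIs the shares overlapped in their intervals between all libraries, and all lay far above the share in hematopoietic cells. At 2000 UMIs the share in the Tbx1neo2/neo2 carrier library differed from that in the Tbx1+/+ library by -5.36 percentage points, with intervals apart.

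The libraries differed more in how much Ccl25 they held in all. Over all kept cells, Ccl25 stood at 287, 120, 242, and 246 CPM, which was lower in the Tbx1neo2/neo2 carrier library (log2 ratio -1.26) and higher with minoxidil (1.01) and PGE2 (1.03). The share of epithelial cells was lowest, at 10.4%, in the same Tbx1neo2/neo2 carrier library, while the level per epithelial UMI was not called. The epithelial class held 80.7%, 75.4%, 90.5%, and 92.1% of the Ccl25 UMIs, and clusters without a class held 16.3%, 14.8%, 5.5%, and 5.16%. One of these, with low UMIs and led by Chga and Pth, held 1927 Tbx1+/+ carrier cells out of 2047.

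Within the epithelium, Ccl25 was highest in the clusters named from cortical TEC markers (cTEC-like). In cTEC-like cluster 1 it reached 1618, 1300, 1527, and 1448 CPM, and in cTEC-like cluster 5 1640, 1428, 1618, and 1767. In the cluster led by the keratin gene Krt5, with Mt1 and Cxcl10 also among its leading genes (Krt5+ TEC-like), it stood at 294, 229, 274, and 190 CPM. The parathyroid-like cluster, 84 cells all from the Tbx1+/+ library, held 53.7 CPM, the lowest among the epithelial clusters.

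In the proliferating-like cluster, led by mitotic genes, Ccl25 stood at 619, 389, 391, and 564 CPM, and this was the only epithelial cluster with a call for the gene: it was lower in the Tbx1neo2/neo2 carrier than in the Tbx1+/+ library (log2 ratio -0.67, -0.73 to -0.61). In unnamed clusters 0 and 4, led by histone and S phase genes, the genotype ratio was -0.42 and -0.54 without a call. The 2 carrier libraries were thus ordered alike in all 6 epithelial clusters that both contained, with the Tbx1+/+ library above.

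**Figure D3:**
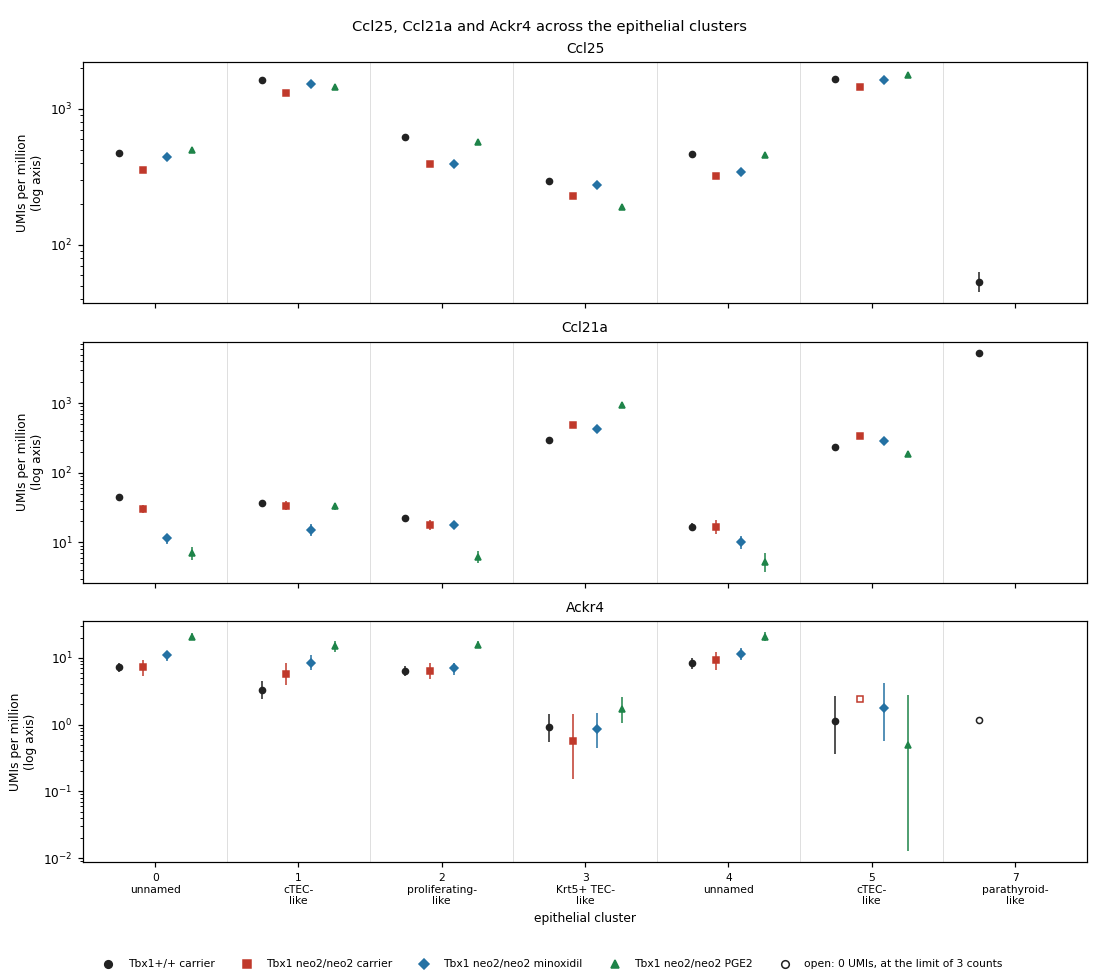
CPM (vertical log axis) of Ccl25, Ccl21a, and Ackr4 in the epithelial clusters (horizontal axis) of 4 libraries, with exact Poisson 95% intervals and open symbols for 0 UMIs at the limit of 3 counts. Ccl25 is highest in both cTEC-like clusters, Ccl21a in the parathyroid-like cluster of the Tbx1+/+ library (5244) and next in the Krt5+ TEC-like cluster, and Ackr4 with PGE2 lies above the other libraries in clusters 0, 1, 2, and 4.

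Ccl25 was also detected outside the epithelium at a low level. Hematopoietic cells held 14.8, 11.1, 12.6, and 12.5 CPM, 2.06% to 2.21% of the epithelial level. For 5 other epithelial genes (Psmb11, Prss16, Krt8, Krt18, and Epcam), the same share ran from 0.241% to 7.05%. Their medians were 1.01%, 0.589%, 0.726%, and 0.565%. Ccl25 thus lay above the median and below the highest of the 5 genes in each library. The part of free RNA or attached cells was not tested. In mesenchymal cells, Ccl25 was at 2.94%, 3.54%, 2.87%, and 2.35% of its epithelial level, above all 5 reference genes, whose highest values were 1.45%, 1.3%, 0.939%, and 0.495%. The cause of this difference was not tested.

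In endothelial cells, Ccl25 stood at 44.6, 33, 65.3, and 12.7 CPM, with calls for higher with minoxidil (log2 ratio 0.98) and lower with PGE2 (-1.38). The summed epithelial markers in the same endothelial cells moved alike, at 322, 204, 477, and 54.6 CPM, and their part in the result was not tested.

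Ccl21a, a ligand of Ccr7, was concentrated in few cells. In the epithelial class it stood at 229, 133, 126, and 228 CPM, or 22989, 4517, 7286, and 13233 UMIs. The Tbx1+/+ and PGE2 libraries were the high pair and the other 2 the low pair. It was lower in the Tbx1neo2/neo2 carrier library (log2 ratio -0.78, -0.83 to -0.73), was not called with minoxidil (-0.08, -0.14 to -0.03), and was higher with PGE2 (0.78, 0.73 to 0.82).

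The 10% of epithelial cells with the most Ccl21a held 94.4% to 97.7% of its UMIs, whereas the 10% with the most Ccl25 held 37.2% to 39.6% of that gene. The median epithelial cell had 0 Ccl21a UMIs in each library, and the highest cell 1129, 235, 432, and 656. The class level therefore rested on which few cells a library contained.

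The genotype call depended on the parathyroid-like cluster, which only the Tbx1+/+ library contained. Its 84 cells held 13479 Ccl21a UMIs, or 5244 CPM. Without this cluster the epithelial log2 ratio of the genotype turned to 0.46, which was not called. With a mitochondrial limit of 5% it was -0.44, also without a call. Parathyroid and thymus arise from the same pharyngeal pouch, and this cluster was led by Pth, the parathyroid hormone gene.

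In the Krt5+ TEC-like cluster, Ccl21a ran opposite to the class in the genotype comparison. Krt5 is known from medullary TECs, a source of CCL21 in the thymus. It was 297, 491, 425, and 952 CPM, or 6217, 3464, 5902, and 12394 UMIs. The Tbx1+/+ library was the lowest and the PGE2 library the highest. The level was higher in the Tbx1neo2/neo2 carrier than in the Tbx1+/+ library (log2 ratio 0.73, 0.67 to 0.79) and higher with PGE2 than with carrier (0.95, 0.90 to 1.01), while the minoxidil ratio was -0.21 without a call.

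Elsewhere in the epithelium, the PGE2 library was below the carrier library. Ccl21a in cTEC-like cluster 5 was 237, 343, 289, and 187 CPM, with a call for lower with PGE2 (log2 ratio -0.87). In unnamed cluster 0 it was 45.6, 30.2, 11.4, and 6.96 CPM, lower with minoxidil (-1.41) and with PGE2 (-2.11). The proliferating-like cluster and unnamed cluster 4 were also called lower with PGE2 (-1.52 and -1.67), and cTEC-like cluster 1, with 33.9 and 33 CPM in these 2 libraries, was not called. Of the 6 epithelial clusters that both libraries contained, the Krt5+ TEC-like one was called higher with PGE2 and 4 were called lower.

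The largest log2 ratio of the 9 genes over the 4 main classes was that of Ccl21a in endothelial cells. Its level was 145, 50.6, 71.4, and 2053 CPM, from 1348, 327, 408, and 7597 UMIs in 202, 241, 98, and 100 cells. The PGE2 library stood far above the other 3, with a log2 ratio of 5.34 (5.18 to 5.51) to the Tbx1neo2/neo2 carrier library. The Tbx1neo2/neo2 carrier was also lower than the Tbx1+/+ library (-1.52, -1.70 to -1.34).

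These UMIs lay in a minority of endothelial cells. Cells with at least 20 Ccl21a UMIs, a limit chosen after the values were seen, numbered 9 of 202, 2 of 241, 1 of 98, and 20 of 100, or 4.46% (2.06 to 8.29), 0.83% (0.101 to 2.97), 1.02% (0.0258 to 5.55), and 20% (12.7 to 29.2). They held 96.8%, 99.1%, 95.3%, and 99.4% of the endothelial Ccl21a. In the remaining endothelial cells, Ccl21a was 4.81, 0.468, 3.35, and 14.9 CPM.

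The cells rich in Ccl21a also carried genes known from lymphatic endothelium, a vessel type known to secrete CCL21. Prox1, the transcription factor that specifies lymphatic identity, was at 402, 601, 617, and 473 CPM in them and at 2.24, 2.03, 3, and 33.3 CPM in the other endothelial cells. Lyve1, a hyaluronan receptor of lymphatic vessels, was at 24.3, 561, 0, and 1792 CPM against 0.784, 0.156, 1.41, and 5.54. Flt4, the receptor for VEGF-C, was at 189, 401, 297, and 267 CPM against 50.4, 57.9, 58.7, and 44. Prox1 had UMIs in all of these cells in the first 3 libraries and in 17 of the 20 of the PGE2 library, where 19 also had Lyve1. The Prox1 level of these cells was within 402 to 617 CPM in each library, while their share of endothelial cells was 20% with PGE2 and at most 4.46% otherwise. The 4 genes looked at in this way (Prox1, Lyve1, Flt4, and Pdpn) were chosen after the Ccl21a values were seen. Epcam and Col1a1, genes of epithelium and mesenchyme, were at 4.91 and 1.23 CPM in the 20 cells of the PGE2 library, below the 11.1 and 47.5 CPM of its other endothelial cells. In the Tbx1+/+ library, Epcam was at 151 CPM in the 9 such cells, all of it in 1 cell.

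Over all kept cells, Ccl21a was 103, 30.4, 52.8, and 141 CPM. Epithelial cells held 76.8%, 77.6%, 91.4%, and 60.7% of it, and endothelial cells 4.5%, 5.62%, 5.12%, and 34.9%. In the Tbx1+/+ library, 13479 of the 29946 Ccl21a UMIs lay in the 84 parathyroid-like cells. A further 3807 lay in the cluster without a class led by Chga and Pth. In mesenchymal and hematopoietic cells Ccl21a was at most 2.21 and 2.18 CPM, below 1% of the epithelial level. The calls for Ccl21a in these 2 classes (lower in the Tbx1neo2/neo2 carrier library in both, and higher with PGE2 in both and with minoxidil in hematopoietic cells) lie at or below the levels that the 5 epithelial reference genes reached there, relative to epithelium.

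Ccl19, the other ligand of Ccr7, was scarce. All kept cells held 12, 8, 43, and 27 Ccl19 UMIs. Mesenchymal cells, a known source of Ccl19 in lymphoid organs, held 1, 2, 1, and 0, and in the PGE2 library a count of 0 allows up to 0.129 CPM at 3 counts. A difference in mesenchyme was not detectable at this depth.

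Clusters without a class held 66.7%, 25%, 2.33%, and 0% of the few Ccl19 UMIs. Cells of a Krt5-led cluster, left out of their class for markers of another class, held 6, 2, 0, and 0 UMIs. Epithelial cells held 3, 4, 41, and 27, or 25%, 50%, 95.3%, and 100%. All but 2 of the epithelial UMIs in the minoxidil library, 39, and all 27 in the PGE2 library were in the Krt5+ TEC-like cluster. The epithelial log2 ratio was 2.58 (1.12 to 4.53) with minoxidil and 1.98 (0.46 to 3.96) with PGE2, both called higher. Within the Krt5+ TEC-like cluster, the minoxidil ratio of 2.31 (0.84 to 4.25) was called and the PGE2 ratio of 1.87 (0.35 to 3.85) was not, against 4 UMIs in the carrier library. Endothelial and hematopoietic cells held 0 Ccl19 UMIs in all 4 libraries.

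Cxcl12, the ligand of Cxcr4 and Ackr3, came from mesenchymal and epithelial cells, and of these 2 sources only the mesenchymal level was called over the whole class. In mesenchymal cells it was 269 CPM (265 to 274), 84.4 (82.5 to 86.3), 364 (357 to 370), and 379 (371 to 387). The Tbx1neo2/neo2 carrier library stood alone on the low side. Cxcl12 was lower there than in the Tbx1+/+ library (log2 ratio -1.67, -1.72 to -1.63) and higher than carrier with minoxidil (2.11, 2.07 to 2.15) and with PGE2 (2.17, 2.12 to 2.21).

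In epithelial cells, Cxcl12 was 127, 102, 119, and 134 CPM, in the same order of the carrier libraries but within 1.5-fold. The ratios were -0.32 (-0.37 to -0.26), 0.22 (0.16 to 0.28), and 0.40 (0.34 to 0.45). Within the epithelium, the proliferating-like cluster was called higher with PGE2, at 148 against 92.8 CPM with carrier (0.68, 0.56 to 0.80). Mesenchymal cells held 42.2%, 59.7%, 58.8%, and 49.2% of a library's Cxcl12 UMIs, and epithelial cells 39.9%, 27%, 34.1%, and 43.6%. Endothelial cells had 20.1, 17.5, 29, and 11.1 CPM, called higher with minoxidil (0.73, 0.38 to 1.09). That was 7.46%, 20.7%, 7.99%, and 2.92% of the mesenchymal level. The highest of 5 mesenchymal genes (Col1a1, Col1a2, Col3a1, Pdgfra, and Dcn) reached 3.96%, 20%, 7.83%, and 3.24% there. The part of free RNA in this call was not tested.

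The median mesenchymal cell had 3, 0, 7, and 5 Cxcl12 UMIs. After thinning to 5000 UMIs, the share of mesenchymal cells with a Cxcl12 UMI was 58.6% (56.7 to 60.4), 21.4% (20.3 to 22.4), 61% (57.8 to 64), and 57% (53.6 to 60.4), and without thinning 79.1%, 35.2%, 87.8%, and 80.3%. The share in hematopoietic cells, thinned alike, was 2.46%, 0.952%, 0.759%, and 1.15%. Median depths of mesenchymal cells were 16270, 13058, 30469, and 25183 UMIs. At equal depth, too, the Tbx1neo2/neo2 carrier library had the lowest share of cells.

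The mesenchyme of the Tbx1neo2/neo2 carrier library differed in make-up, and cartilage genes were highest in this library, where Cxcl12 was lowest. Genes of the chondrocyte marker list without a feature of their symbol were left out of the sums. The 6 that remained all had UMIs in the mesenchyme of each library, and their summed level was 86.9, 1049, 104, and 69.4 CPM. Hox genes of paralog groups 4 to 13, which mark positions behind the head and pharynx, summed to 80.2, 558, 97.2, and 91.2 CPM. The chondrocyte list was higher in this library in each of the 8 mesenchymal clusters, and its part in the lower Cxcl12 was not tested.

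Cxcl12 was lower in the Tbx1neo2/neo2 carrier library in 6 of the 8 mesenchymal clusters. In the 2 fibroblast-like clusters, it was 549, 137, 707, and 965 CPM and 382, 100, 529, and 393 CPM, with genotype ratios of -2.00 and -1.93. In the proliferating-like cluster it was 203, 80.3, 242, and 263 CPM, with a ratio of -1.34. The chondrocyte list summed to 175, 381, 215, and 98.6 CPM in fibroblast-like cluster 0, where Cxcl12 was also higher with both drugs (2.37 and 2.82), to 125, 311, 174, and 125 CPM in fibroblast-like cluster 2, and to 57.3, 818, 57, and 45.9 CPM in the proliferating-like cluster.

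The differences were larger in the 2 chondrocyte-like clusters and the smooth muscle-like cluster. Chondrocyte-like cluster 4 had 706, 53, 745, and 727 CPM of Cxcl12 and cluster 5 had 579, 8.07, 837, and 1096, with genotype ratios of -3.73 and -6.17. The names rest on the cells of all libraries. In cluster 5 the chondrocyte list summed to 247, 2909, 300, and 112 CPM, and 923 of its 1058 cells were of the Tbx1neo2/neo2 carrier library against 11 of the PGE2 library. The cells placed there from the other 3 libraries carried less cartilage transcript than those of the Tbx1neo2/neo2 carrier library. In the smooth muscle-like cluster, Cxcl12 was 259, 9.53, 322, and 319 CPM (-4.77), beside a chondrocyte list at 41.3, 1084, 25.3, and 34 CPM.

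The other 2 clusters did not share this call. In the pericyte-like cluster, named from genes of vessel-supporting cells, Cxcl12 was 164, 115, 161, and 79.1 CPM, with no call and with the PGE2 library lowest. The chondrocyte list summed to 42.5, 199, 40.6, and 53.2 CPM in it. In the mesothelial-like cluster, the covering layer of the body cavities, Cxcl12 was 32, 52, 11.3, and 7.7 CPM, called higher for the genotype (0.70) and lower with minoxidil (-2.20) and PGE2 (-2.75), from 250, 51, 55, and 20 cells.

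**Figure D4:**
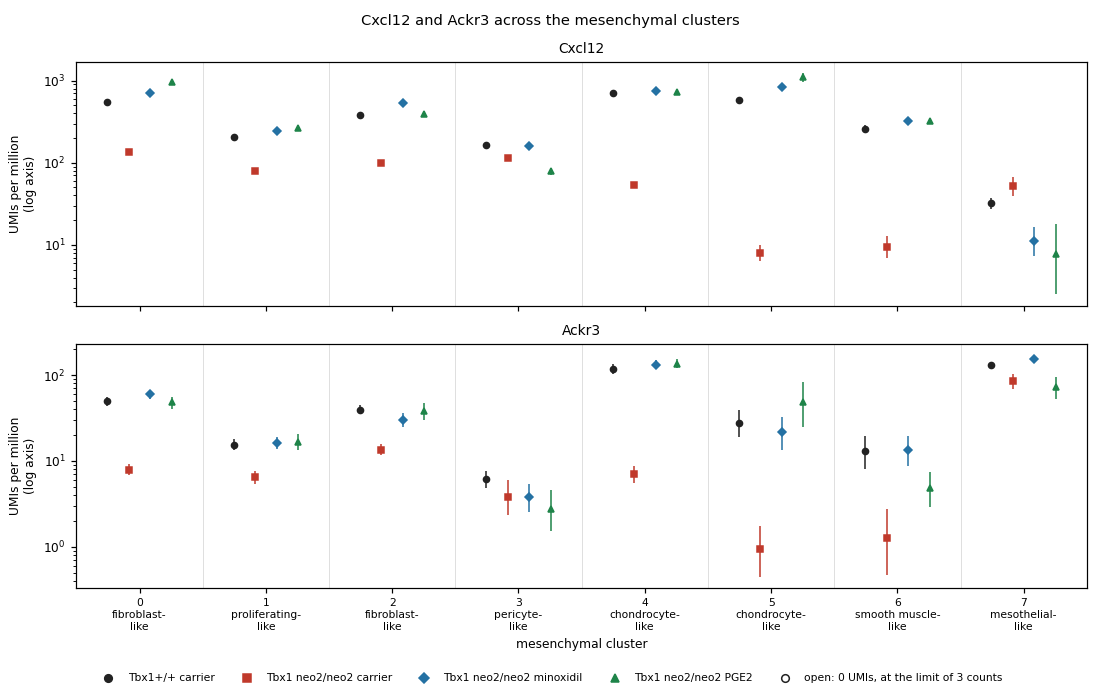
CPM (vertical log axis) of Cxcl12 and Ackr3 in 8 mesenchymal clusters (horizontal axis) of 4 libraries, with exact Poisson 95% intervals. The Tbx1neo2/neo2 carrier library lies below the others for both genes except in the pericyte-like and mesothelial-like clusters, and by the most in cluster 5 for Cxcl12 (8.07 against 579 to 1096).

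Ccr9, the receptor for Ccl25, was confined largely to hematopoietic cells, which held 74.2%, 79%, 93.2%, and 96.4% of its UMIs. Its level there was 4.25 (3.80 to 4.74), 5.78 (4.86 to 6.82), 4.48 (3.87 to 5.16), and 6.94 CPM (6.26 to 7.69), from 322, 139, 192, and 373 UMIs. The PGE2 and Tbx1neo2/neo2 carrier libraries were the higher pair, with intervals that overlapped. The log2 ratios were 0.44, -0.37, and 0.27, none of them called.

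After thinning, 2.46%, 2.86%, 2.73%, and 4.16% of hematopoietic cells had a Ccr9 UMI, and 5.83%, 5.53%, 7.71%, and 8.88% without thinning. In epithelial cells the thinned share was 0.0604%, 0, 0.105%, and 0, where 0 cells allow up to 0.337% and 0.308% by the exact interval. The hematopoietic cell with the most Ccr9 had 16, 11, 30, and 27 UMIs.

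Ccr9 was highest in the innate-like cluster, led by Klrd1, a receptor of natural killer cells, Ccl5, and Id2. It reached 27, 40.5, 48.4, and 74 CPM there, from 92, 76, 113, and 213 UMIs. The PGE2 library was the highest, with a log2 ratio of 0.87 (0.48 to 1.27) over carrier. In T-lineage-like cluster 2, which carried Ptcra and Rag1, genes of T cell receptor assembly, next to hemoglobin genes among its leading genes, Ccr9 was at 1.41, 2.71, 0.556, and 7.76 CPM and higher with PGE2 (1.52, 0.57 to 2.63).

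All other hematopoietic clusters held less than the innate-like one. With the libraries pooled, Ccr9 was at 47.1 CPM in the innate-like cluster and 5 in unnamed cluster 1. It was at 4.87 CPM in macrophage-like cells and 3.59 in T-lineage-like cluster 2. Ccr9 in T-lineage-like cluster 0 had no calls, and in the early progenitor-like cluster it was 3.57, 2.32, 0.808, and 1.76 CPM, also without one. Macrophage-like cells held 10.8, 1.78, 0, and 2.35 CPM, lower in the Tbx1neo2/neo2 carrier than in the Tbx1+/+ library (-2.60, -4.30 to -1.26). The 3 genes whose levels ran most like Ccr9 over 73 combinations of 21 cell types and 4 libraries were Klrd1, Ctsw, and AW112010, with Pearson correlations of 0.96, 0.96, and 0.95 of log2(CPM + 10).

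Ccr7, the receptor for Ccl21a and Ccl19, was near its limit of detection at this stage. Hematopoietic cells held 85, 19, 27, and 93 UMIs, or 1.12, 0.789, 0.63, and 1.73 CPM. The PGE2 library was higher than the carrier library (log2 ratio 1.13, 0.41 to 1.93), and the genotype and minoxidil ratios of -0.51 and -0.32 were not called. These values depended on the processing: with the mean over cells in place of summed UMIs the 3 ratios were 0.58, 0.81, and -1.69 in the same order, none of them called, and with a mitochondrial limit of 5% the PGE2 ratio was 2.26 and the genotype ratio -1.25.

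Of the hematopoietic clusters, the macrophage-like one had a call for Ccr7. It held 5, 2.14, 1.16, and 23.5 CPM, from 19, 6, 2, and 50 UMIs, higher with PGE2 (3.46, 2.24 to 4.97). Over all hematopoietic cells, the highest cell of the PGE2 library held 18 Ccr7 UMIs, and that of the other 3 libraries 5, 4, and 3. In the T-lineage-like clusters, Ccr7 was at or below 1.1 CPM in each library.

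Cxcr4, the receptor for Cxcl12, was the most widely spread of the receptors. In hematopoietic cells it was 32.2 (31 to 33.5), 21.5 (19.7 to 23.5), 45.5 (43.5 to 47.6), and 38.4 CPM (36.8 to 40.1), from 2441, 518, 1951, and 2065 UMIs. The Tbx1neo2/neo2 carrier library was the lowest and the minoxidil library the highest, and no intervals overlapped. The genotype ratio was -0.58 (-0.72 to -0.45), just short of the limit (-0.67 and called with the mean over cells), and Cxcr4 was higher with minoxidil (1.08, 0.94 to 1.22) and with PGE2 (0.84, 0.70 to 0.98).

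The share of hematopoietic cells with a Cxcr4 UMI, thinned to 5000, was 13.5% (12.1 to 15.1), 8.81% (6.98 to 10.9), 17.8% (14.9 to 20.9), and 14.8% (12.7 to 17), against 1.69%, 1.56%, 2.21%, and 1.93% of epithelial cells. Unthinned shares were 57.3%, 30.6%, 72.6%, and 69.6%. Share and level gave the same order of the libraries. Thinned to 2000 UMIs, the genotype and minoxidil shares differed by -1.67 and 3.22 percentage points with overlapping intervals.

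The difference was spread over the hematopoietic clusters. In T-lineage-like cluster 0, Cxcr4 was 42.3, 28.7, 62.1, and 46.7 CPM, and in T-lineage-like cluster 2 it was 44.8, 27.7, 53.4, and 41.8 CPM, both higher with each drug. Early progenitor-like cells had 23.7, 17.5, 28.3, and 27.8 CPM, innate-like cells 19.4, 12.3, 39.8, and 24.3 CPM, and macrophage-like cells 18.9, 5.34, 14.5, and 22.1 CPM, again higher with each drug in all 3. In unnamed cluster 1, led by Ung and Bex6, the values were 25.4, 23.9, 32.6, and 34.2 CPM without a call. Cxcr4 was lowest in the Tbx1neo2/neo2 carrier library in each of these 6 clusters, and the genotype was called in T-lineage-like cluster 2 (-0.69) and the macrophage-like cluster (-1.83).

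**Figure D5:**
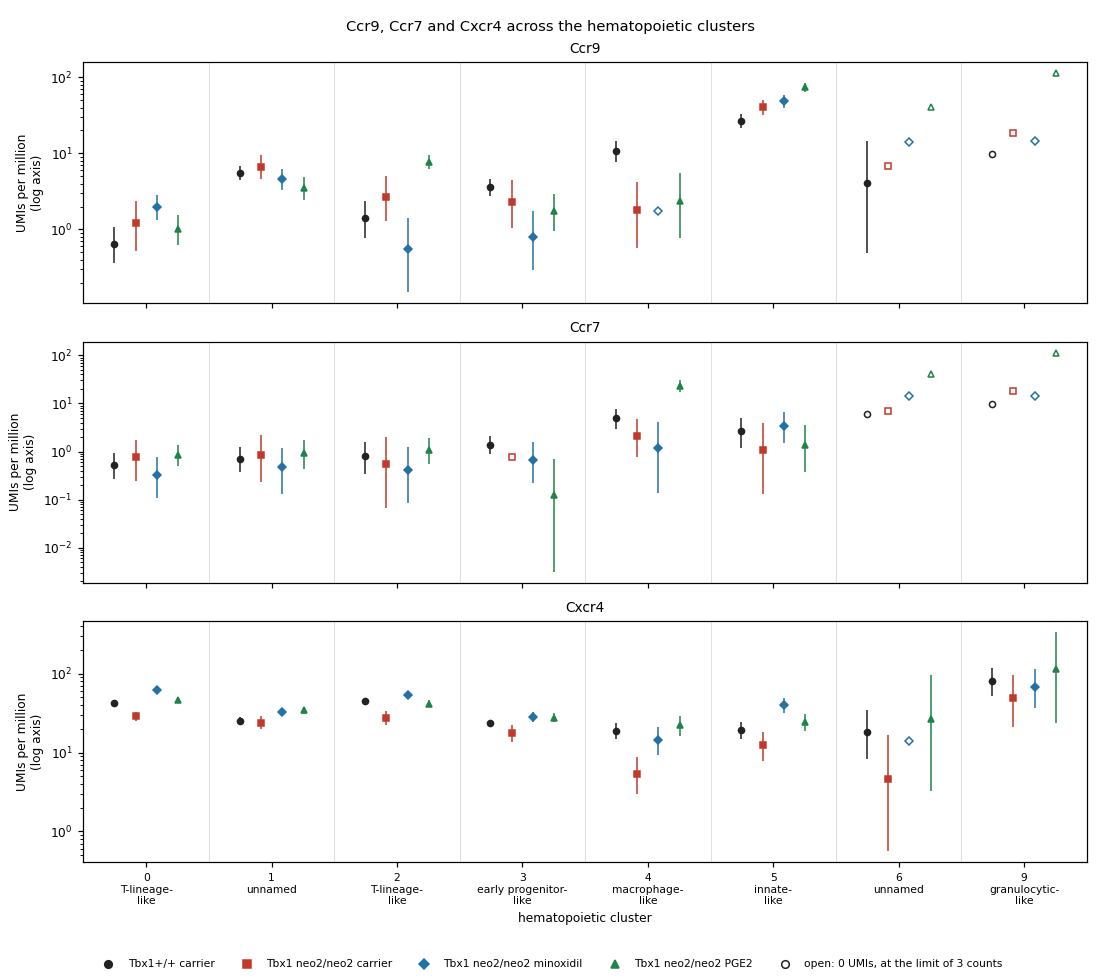
CPM (vertical log axis) of Ccr9, Ccr7, and Cxcr4 in 8 hematopoietic clusters (horizontal axis) of 4 libraries, with exact Poisson 95% intervals and open symbols for 0 UMIs at the limit of 3 counts. Ccr9 is highest in the innate-like cluster (27 to 74), Ccr7 stands out in the macrophage-like cluster with PGE2 (23.5), and Cxcr4 is lowest in the Tbx1neo2/neo2 carrier library in clusters 0 to 5.

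Outside the blood cells, Cxcr4 was present in endothelial cells at 26.3, 17.5, 20.6, and 5.94 CPM. It was lower in the Tbx1neo2/neo2 carrier than in the Tbx1+/+ library (-0.59, -0.92 to -0.26) and lower again with PGE2 (-1.56, -2.29 to -0.89). Hematopoietic markers in the same endothelial cells summed to 228, 158, 149, and 84.8 CPM, and their part in the result was not tested. In epithelial cells Cxcr4 was 3.53, 3.33, 5.16, and 4.33 CPM, higher with minoxidil (0.63), and in mesenchymal cells 2.77, 1.13, 2.29, and 2.67 CPM, lower for the genotype (-1.29) and higher with both drugs (1.01 and 1.23). Hematopoietic markers in epithelial cells summed to 16.2, 10.4, 15.7, and 12.3 CPM. Endothelial markers in mesenchymal cells summed to 24.8, 10.2, 20.3, and 22.4 CPM, in a pattern like that of Cxcr4 there, and hematopoietic markers to 11.9, 7.33, 7.33, and 5.86 CPM. The part of these markers in the calls was not tested.

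Ackr3, the scavenger of Cxcl12, was mainly a gene of the mesenchyme, which held 70.4%, 69.4%, 84.6%, and 79.3% of its UMIs. Its level there was 35.5 (33.9 to 37.2), 8.01 (7.44 to 8.61), 39 (36.9 to 41.2), and 29 CPM (26.9 to 31.3), from 1786, 727, 1277, and 674 UMIs. Again the Tbx1neo2/neo2 carrier library stood apart on the low side. Ackr3 was lower there than in the Tbx1+/+ library (log2 ratio -2.15, -2.28 to -2.02, and -1.56 with a mitochondrial limit of 5%) and higher than carrier with minoxidil (2.28, 2.15 to 2.42) and with PGE2 (1.86, 1.70 to 2.01).

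By cluster, Ackr3 was highest in the mesothelial-like cells of both carrier libraries and the minoxidil library, at 130, 84.9, 154, and 72.4 CPM in the 4 libraries, where Cxcl12 was lowest apart from the Tbx1neo2/neo2 carrier library. In chondrocyte-like cluster 4 it was 119, 7.05, 132, and 136 CPM, and in fibroblast-like cluster 0 it was 49.3, 7.93, 59.8, and 48.1 CPM, lower for the genotype in both (-4.07 and -2.64). Pericyte-like cells held 6.13, 3.85, 3.8, and 2.75 CPM without a call. The genotype ratio was called lower in 7 of the 8 mesenchymal clusters, the pericyte-like cluster being the exception, beside the cartilage lists given for Cxcl12.

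Endothelial cells, where ACKR3 is also known to be expressed, had 23.1, 15.5, 16.3, and 10.8 CPM of Ackr3 with no call. In erythroid cells it was 15, 7.15, 11.8, and 2.26 CPM. Epithelial cells held 0.547, 0.442, 0.501, and 0.431 CPM, and hematopoietic cells 0.462, 0.291, 0.374, and 0.223 CPM.

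Ackr4, the scavenger of Ccl19, Ccl21, and Ccl25, was found mainly in the epithelium. It was 4.85 (4.43 to 5.3), 5.4 (4.64 to 6.24), 6.85 (6.2 to 7.56), and 13.7 CPM (12.7 to 14.7), from 488, 183, 397, and 793 UMIs. The PGE2 library was the highest, with a log2 ratio of 1.34 (1.11 to 1.58) over carrier, whereas the ratios of 0.15 for the genotype and 0.34 for minoxidil were not called (the latter was 0.80 and called with a mitochondrial limit of 5%). After thinning, 2.02%, 2.65%, 3.58%, and 5.61% of epithelial cells had an Ackr4 UMI, against 0 of the hematopoietic cells in the first 3 libraries and 0.0884% in the PGE2 library.

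The higher level with PGE2 was present in 4 epithelial clusters. Ackr4 was 7.2, 7.15, 10.8, and 20.7 CPM in unnamed cluster 0 and 3.34, 5.78, 8.41, and 14.8 CPM in cTEC-like cluster 1. It was 6.33, 6.36, 6.92, and 15.7 CPM in the proliferating-like cluster and 8.22, 9.1, 11.3, and 20.6 CPM in unnamed cluster 4. The ratios to carrier in these 4 clusters were 1.54, 1.35, 1.30, and 1.18, all called higher. The Krt5+ TEC-like cluster, where Ccl21a was highest apart from the parathyroid-like cells, held less Ackr4 than these 4, at 0.907, 0.567, 0.864, and 1.69 CPM, and cTEC-like cluster 5 held 1.13, 0, 1.77, and 0.501 CPM, both without a call.

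In mesenchymal cells Ackr4 was rare except in 1 library, at 0.219, 2.21, 0.122, and 0.517 CPM from 11, 201, 4, and 12 UMIs. It was higher in the Tbx1neo2/neo2 carrier than in the Tbx1+/+ library (3.34, 2.47 to 4.36) and lower with minoxidil (-4.18, -6.07 to -2.80) and PGE2 (-2.10, -3.08 to -1.26). Most of these UMIs were in fibroblast-like cluster 0, with 5, 134, 2, and 6, and in the proliferating-like cluster, with 0, 48, 1, and 2. Ackr4 was thus the member that ran opposite to Cxcl12 and Ackr3 in the mesenchyme of the Tbx1neo2/neo2 carrier library.

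The genes whose levels ran most like the members over the 73 combinations were named by a fixed rule and describe these libraries only, since the combinations share libraries and depth. For Ccl25 they were Psmb11, the cortical subunit of the thymoproteasome, Ufsp1, and Spock2, with Pearson correlations of 0.99, 0.98, and 0.98. For Ccl21a they were Cyb561, Stap2, and Nr6a1 (0.91, 0.88, and 0.86), and for Cxcl12 Gm15050, Akap12, and Pkdcc (0.92, 0.91, and 0.90). For Cxcr4 they were Klhl6, Abi3, and Dusp2 (0.94, 0.93, and 0.93), for Ackr3 Zfpm2, Ahnak2, and Bace2 (0.90, 0.90, and 0.89), and for Ackr4 Ranbp3l, Irs4, and Sv2b (0.86, 0.82, and 0.82). For Ccr7 they were Stfa1, Clec10a, and Plbd1 (0.90, 0.86, and 0.85), and for Ccl19 Ubd, Gm10851, and Lpo (0.95, 0.91, and 0.87), both members with few UMIs.

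The other chemokines were counted from a list of 33 genes. In hematopoietic cells, 13 of 20 tested were higher and 2 lower in the Tbx1neo2/neo2 carrier than in the Tbx1+/+ library (7.34% and 2.53% of all tested genes). Relative to that carrier library, 1 of 19 was higher and 12 lower with minoxidil (3.32% and 6.85% of all genes), and 2 of 19 were higher and 14 lower with PGE2 (3.3% and 10.2%). Pf4, made by megakaryocytes and macrophages, was at 38.6, 232, 44, and 8.62 CPM, and Ccl9, a ligand of Ccr1, at 5.15, 23.4, 6.05, and 3.11 CPM. Ccl22, known from mature dendritic cells that carry CCR7, was at 0, 0, 0, and 2.38 CPM. Macrophage-like cells made up 163 of the 1030 hematopoietic cells of the Tbx1neo2/neo2 carrier library and 189 of 2163 of the Tbx1+/+ library, and their part in these counts was not tested.

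In epithelial cells, 7 of 12 tested chemokines of the list were higher and 1 lower with minoxidil (4.06% and 2.56% of all genes), and 6 of 11 were higher and 1 lower with PGE2 (3.23% and 3.58%). Cxcl10, a ligand of Cxcr3 induced by interferon, was at 53.8, 48.5, 172, and 205 CPM, and Cxcl9, which shares its receptor, at 1.6, 0.619, 15.4, and 7.62 CPM. In mesenchymal cells, 10 of 19 were lower and 5 higher for the genotype, where calls were common over all genes (12.3% lower and 11.8% higher). Cxcl1, which draws neutrophils, was at 39.3, 1.52, 31.1, and 55.9 CPM there, and Ccl2, which draws monocytes, at 33.4, 11.2, 31.7, and 18.8 CPM. Cxcl9 was higher for the genotype in mesenchymal cells, at 0.0398, 2.1, 0.0611, and 0.0861 CPM, by a larger ratio than Cxcl1 was lower.

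Of 20 other chemokine receptors, 13 were tested in hematopoietic cells. For the genotype 5 were higher and 2 lower (7.34% and 2.53% of all genes), with minoxidil 1 was higher and 4 lower (3.32% and 6.85%), and with PGE2 1 was higher and 5 lower (3.3% and 10.2%). Cx3cr1, a receptor of monocytes and macrophages, was at 28, 88.4, 34.3, and 19.6 CPM and Ccr1 at 7.07, 21.4, 7.61, and 4.19 CPM. Gpr182, an atypical chemokine receptor of endothelium, was at 12.5, 9.91, 9.97, and 25.1 CPM in endothelial cells and called higher with PGE2.

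Adhesion and homing molecules were counted from a list of 20 genes. In mesenchymal cells, 5 of 15 tested were lower for the genotype and 1 higher (12.3% and 11.8% of all genes). Sele, an endothelial selectin, was among the lower ones at 16.6, 0.716, 13.5, and 30.1 CPM, beside summed endothelial markers of 24.8, 10.2, 20.3, and 22.4 CPM in the same cells. In the endothelial cells themselves, Sele was lower than in the mesenchyme of each library, at 0.86, 0.31, 8.75, and 0.811 CPM. In epithelial cells, Icam1 (44.5, 33.9, 66.5, and 56.1 CPM), Vcam1 (21.1, 22.9, 35.6, and 43.8 CPM), and Madcam1 were the 3 of 16 called higher with minoxidil (4.06% of all genes) and the 3 of 13 called higher with PGE2 (3.23%).

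Of 12 thymic epithelial signals, 0 were called in epithelial cells between the carrier libraries under the 1.5-fold rule, 1 was higher and 1 lower with minoxidil, and 1 was higher with PGE2, against the same shares of all genes. Il7, a cytokine that sustains early T cells, was at 355, 365, 378, and 402 CPM and Wnt4, a factor that acts on TECs, at 223, 232, 206, and 255 CPM. Cd40 was the 1 higher with minoxidil (5.87 to 9.25 CPM), Tslp the 1 lower (17 to 4 UMIs), and Relb, a factor needed for medullary TECs, the 1 higher with PGE2 (27.6 to 41.8 CPM).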

How the data were processed

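Thymic lobes were dissociated with trypsin and sequenced on the 10x platform, 1 library per group. The authors made the deposited UMI counts with Cell Ranger 5.0.1 against mm10, as raw whole-number counts per gene and cell barcode over 27998 genes. Samples were grouped by the genotype and treatment in the labels. The 9 genes, the gene lists, and the markers were chosen with earlier results of these data known.

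Barcodes were kept that had 200 genes or more and no more than 10% of UMIs from mitochondria. Libraries were integrated in Seurat 5.3.0 (R 4.3.3) with 2000 variable genes, from which all listed genes had been removed, 30 dimensions, and resolution 0.3. Clusters were named from marker lists, epithelial, mesenchymal, and hematopoietic cells were clustered again, and clusters with markers of another class were left out of their class. Doublets were left in. UMIs were summed per class and library in Python 3.11.15 (numpy 2.4.6, scipy 1.17.1). Exact 95% intervals, Poisson for levels and Clopper-Pearson for shares, cover counting error only, and a count of 0 was given a limit of 3 counts. No p-value was computed, since each group is 1 library. Calls needed 1.5-fold and intervals apart, over genes with 20 UMIs or more in both libraries combined. Calling was tested on simulated Poisson counts, the same model as the intervals. These held no variation between embryos or in cell make-up, so the test covers counting error only. Library totals were 289973371, 191261310, 150934100, and 154695843 UMIs in kept cells.

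Named beside the 9 genes were their copies, the 3 genes most like each in level, and, of each other list, the 2 highest in the Tbx1+/+ library and the 3 with the largest called ratios per class. Genes that make up a small count, and the lymphatic genes, were named after their values were seen. Alternatives covered the mitochondrial limit, resolution, integration, doublets, TMM and DESeq2 scaling (edgeR 4.0.16, DESeq2 1.42.0), the mean over cells, and the fold of a call.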

Additional observations from a re-analysis of the deposited data

Results flagged for a closer look

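With PGE2 against the Tbx1neo2/neo2 carrier library, Cxcr4 stood on opposite sides in different cell classes: its log2 ratio was 1.23 in mesenchymal and 0.84 in hematopoietic cells, both called higher, and -1.56 in endothelial cells, called lower. Mesenchymal Cxcr4 rested on 103 UMIs in the carrier and 62 in the PGE2 library, and the summed endothelial markers in mesenchymal cells were at 10.2 and 22.4 CPM in these libraries. Hematopoietic markers in endothelial cells were at 158 and 84.8 CPM, and the part of either list was not tested. Ackr4 likewise had a log2 ratio of 1.34 in epithelial cells, called higher, and -2.10 in mesenchymal cells, called lower, from 201 UMIs in the carrier and 12 in the PGE2 library. The difference between the classes was not tested, since each class of a group comes from 1 library.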

How the results depend on the processing

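Of 503 recomputed values, 453 kept their direction and side of the limit, 1 reversed, 7 lost and 4 gained a call, and 38 moved. TMM and DESeq2 scaling changed no call of the 9 genes in the classes recomputed. For Ccl21a in epithelium, the genotype ratio was -0.44 with a mitochondrial limit of 5% and -0.78, no longer called, with a 2-fold limit, at which the PGE2 ratio of 0.78 and that of Cxcr4 in hematopoietic cells (0.84) were not called either. Without the parathyroid-like cluster, which only the Tbx1+/+ library contained, the genotype ratio of Ccl21a was 0.46. With the 5% limit, ratios were -1.56 for Ackr3 (genotype), 0.80 and called for Ackr4 (minoxidil), and -1.25 and 2.26 for Ccr7 (genotype and PGE2). With the mean over cells, they were 1.59 for Ccl19 in mesenchyme (minoxidil), 0.81, -1.69, and 0.58 for Ccr7 (genotype, minoxidil, and PGE2, the last no longer called), and -0.67, now called, for Cxcr4 (genotype), which was also called at -0.59 with clusters holding markers of another class left in. The cause was not tested. Thinned to 2000 UMIs, the share of cells differed by -5.36 points for Ccl25 (genotype, intervals now apart) and by -1.67 and 3.22 points for Cxcr4 (genotype and minoxidil, intervals now overlapping). The share of Ccl25 UMIs in epithelium over all libraries was 82.4% with the 5% limit, 84% without integration, and 92% without the 6% of cells with the highest doublet scores. That of Ccl21a was 68.7%, 74.4%, and 77.7% under these settings and 73.8% at resolution 0.6, and that of Cxcl12 in mesenchyme 38.4% with the 5% limit and 54.5% without high doublet scores.

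Counts of called genes fell with a 2-fold limit, which calls fewer genes by construction. In the order genotype, minoxidil, PGE2, higher counts were 221, 297, and 240 in epithelium, 1194, 1303, and 1185 in mesenchyme, and 644, 227, and 194 in hematopoietic cells, and lower counts were 336 and 332 in epithelium (genotype and PGE2), 1261, 1126, and 1163 in mesenchyme, and 143 in hematopoietic cells (genotype). In epithelium, 147 genes were higher for the genotype without integration and 186 without high doublet scores, and 171 and 203 were lower with minoxidil and 282 and 332 with PGE2. With the 5% limit, 574 and 815 hematopoietic genes were lower with minoxidil and PGE2.

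The doublet scores, the parathyroid-like cluster, and the mixed clusters were alternatives chosen after seeing the data. Scrublet's own threshold called 0 doublets in the Tbx1neo2/neo2 carrier library. The planned removal of called doublets was not run. No paired analysis was possible because each group has 1 library, and leaving out a replicate was not possible either. Depth limits Ccl19 and Ccr7 most.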

Other observations

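A cluster without a class, led by Chga and Pth, held 1927 cells of the Tbx1+/+ carrier library out of 2047, with a median of 6188 UMIs. In the Tbx1+/+ library it carried 258 CPM of Ccl25 and 150 CPM of Ccl21a. Counted as epithelial, it left Ccl25 without a call (genotype log2 ratio -0.35) and Ccl21a lower for the genotype (-0.86).

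Cxcl12 in hematopoietic cells stood at 3.71, 1.99, 2.66, and 3.28 CPM, called lower for the genotype (log2 ratio -0.90) and higher with PGE2 (0.72). This level was 1.38%, 2.36%, 0.732%, and 0.864% of its mesenchymal level. The highest of 5 mesenchymal reference genes (Col1a1, Col1a2, Col3a1, Pdgfra, and Dcn) reached 0.441%, 0.92%, 0.264%, and 0.139% there. Epithelium is the other source of Cxcl12, and its part in these counts was not tested.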
